A study of Mus musculus with 8 samples.

Results

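Hedgehog pathway genes were measured in mammary glands of mice in which both copies, or 1 copy, of Sox9 could be deleted. The 9 genes were the ligand Ihh, the receptors and co-receptors Ptch1, Gas1 and Boc, the ligand-binding inhibitor Hhip, the transducer Smo and the transcription factors Gli1, Gli2 and Gli3. They were chosen by name, each through the probe set with the highest mean among those paired with exactly 1 gene symbol, and all 9 were found among the 19938 genes of the array table. Each had 1 such probe set, and none of the 9 lies on chromosome 11, which carries Sox9. The study compared 4 MMTV-Cre;Sox9 flox/flox females with 4 MMTV-Cre;Sox9 flox/+ females, all virgin, untreated, 5 weeks old and of the strain C57BL/6 X FVB. Both genotypes carried MMTV-Cre, a recombinase driven by a viral promoter (mouse mammary tumour virus) that is active in mammary epithelium, and the controls also carried a floxed Sox9 copy beside an intact one. RNA came from the part of the fourth gland next to its lymph nodes, so that each sample mixed ducts with fat, stroma and immune cells, with 1 Affymetrix Gene 1.0 ST array per gland. Intensities in the text are on a linear scale after quantile normalization of the arrays.

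Hedgehog ligands are secreted proteins that bind the receptor PTCH1. Without ligand PTCH1 holds the membrane protein SMO inactive, and with ligand SMO signals through the primary cilium to the GLI transcription factors. In the mammary gland the pathway is known for its restraint: GLI3 acting as a repressor is needed for the embryonic mammary buds, and a mutant form of Ptch1 disturbs ductal growth at puberty.

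None of the 9 genes differed between the genotypes past the threshold, an adjusted p under 0.05 in limma over all genes tested, where 8 genes passed (0.0401% of those tested). The 95% intervals of all 9 differences lay within 0.382 of 0 on the log2 scale. At an unadjusted limma p under 0.05 there were 2 of the 9, against 10.3% of all genes: Ptch1, lower in the flox/flox glands, and Gli2, higher. In the lower direction alone 5.46% of all genes had such a p, and in the higher direction 4.81%. The median log2 difference of the 9 genes was -0.07, with 3 positive and 6 negative, beside a median of -0.01 over all genes. In whole tissue, fewer cells of a type and less RNA per cell cannot be told apart.

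**Figure D1:**
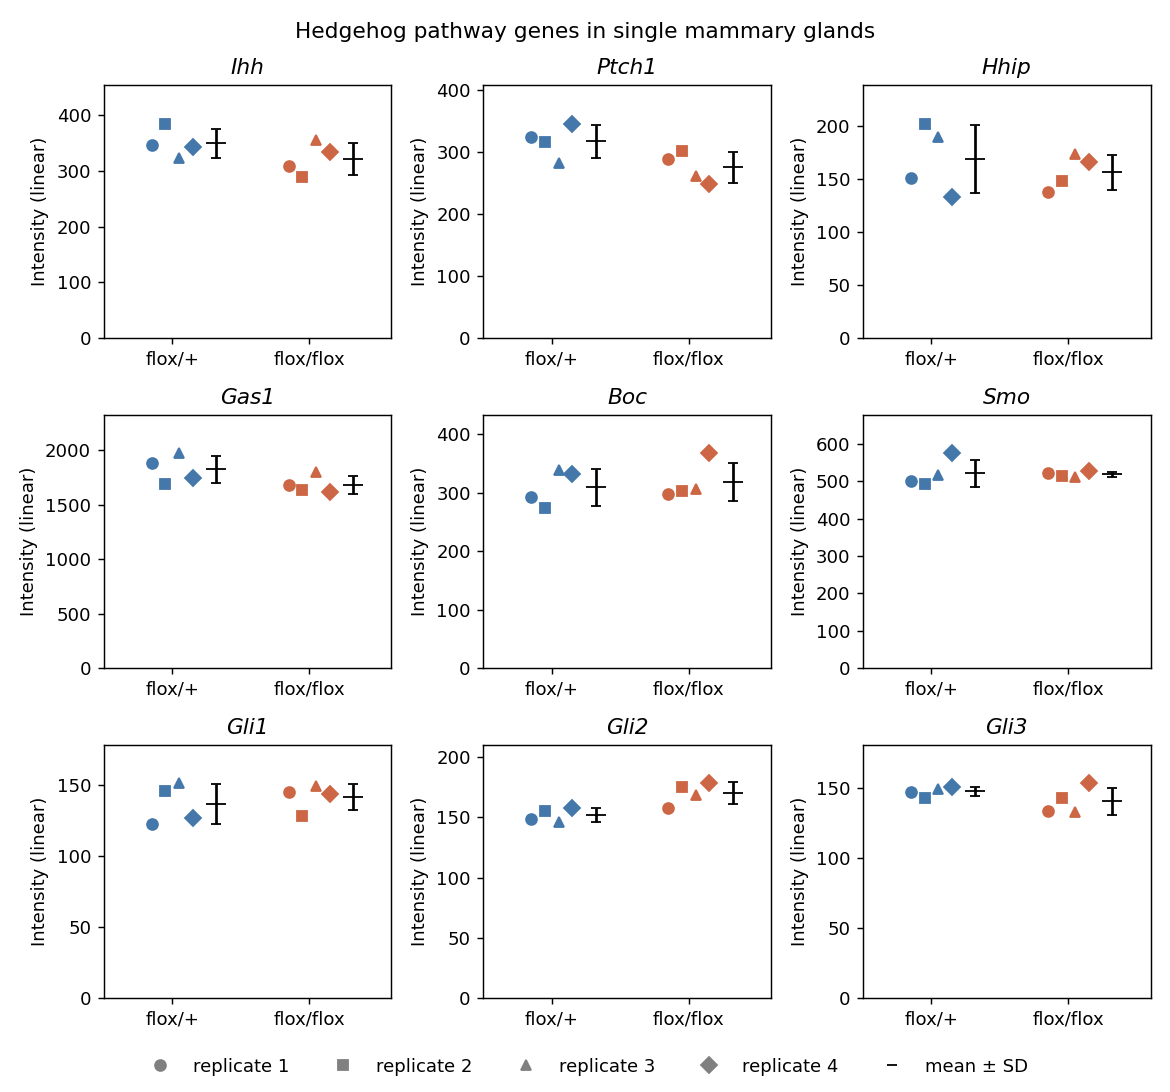
Intensity (linear scale from 0, after quantile normalization) of the 9 Hedgehog pathway genes in each gland, with flox/+ in blue, flox/flox in orange, a marker shape for each replicate number and the mean ± SD (n = 4) in black beside the points. The genotypes overlap in 8 of the 9 panels, and in the Gli2 panel the lowest flox/flox gland lies just above the highest control.

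The arrays had deposited median intensities between 159 and 178. Sox9, the targeted gene, read 410 ± 35.1 in flox/+ and 323 ± 35.7 in flox/flox glands (SD, n = 4), with no overlap but with a limma adjusted p of 0.256. It is not known here whether its probes lie inside the deleted part. The gland labels were checked against markers of 9 cell types, of which 76 of 85 genes were measured. The keratin Krt8 of luminal epithelium read 2289 to 2951, the collagen Col1a1 of fibroblasts 6034 to 9379 and the adipocyte hormone Adipoq 4949 to 6398 over the 8 glands. Of the 76 markers none passed the test. An unadjusted limma p under 0.05 was seen in 7 of them (9.21%), 6 lower and 1 higher. Over all genes it was seen in 10.3%, with 5.46% lower and 4.81% higher. The array of flox/+ replicate 2 stood apart in lymphocyte genes: the antigen receptor chain Cd79a read 1073 there and 32.05 to 69.7 on the other 7 arrays, and the B cell surface protein Ms4a1 read 375 against 21.5 to 57.3. Of the T cell and general leukocyte genes, Cd3g, Cd2 and Ptprc were also highest there. Cd3g read 376 against 70.02 to 123, Cd2 351 against 119 to 249 and Ptprc 1199.6 against 440.1 to 708. The T cell gene Cd3e was not highest there, at 199 beside 201 in flox/flox replicate 3. Without this array the log2 difference was -0.20 for Ptch1, 0.16 for Gli2 and -0.08 for Gli3, and for the other members it is given below.

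Ihh, or Indian hedgehog, is the member that encodes a ligand. Its intensity was 347, 385, 324 and 343 in flox/+ replicates 1 to 4 and 309, 289.5, 356 and 335 in the flox/flox glands. The highest reading was in the lymphocyte-rich control and the lowest in flox/flox replicate 2, and the genotypes overlapped, with 2 flox/flox glands below every control. The log2 difference was -0.11 ± 0.08 (SE; 95% interval -0.29 to 0.06), with a limma adjusted p of 0.672. Without flox/+ replicate 2 it was -0.07. Luminal epithelial markers, from the layer that lines the ducts, had summed intensities of 12276 to 14775 in flox/+ and 11973 to 15316 in flox/flox glands, with 5 markers of 12 positive, 7 negative and none at 0. Hormone-sensing luminal markers, 6 measured, had a mean log2 level of 9.21 to 9.42 in flox/flox and 9.44 to 9.68 in flox/+ glands, without overlap. Their summed intensities, 4527 to 5198 against 5072 to 5927, overlapped. Of these markers 5 were negative and 1 positive, none was at 0 and none passed the test. Prom1 and Gata3 had log2 differences of -0.66 and -0.48, while Foxa1, Tnfsf11 and Pgr were at -0.12, -0.06 and -0.03. The positive marker was the oestrogen receptor gene Esr1, at 0.15, with 3 flox/flox glands above every control. Prom1, a surface protein of these cells, read 163 ± 17.4 in flox/+ and 97.2 ± 10.1 in flox/flox glands (SD, n = 4; limma adjusted p = 0.0501), and the luminal transcription factor gene Gata3 read 1103 ± 63.98 and 799 ± 188 (limma adjusted p = 0.259), both without overlap. Over all genes, values without overlap in the lower direction were seen in 3.16%. The part of either luminal list in the Ihh values was not tested.

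Ptch1 encodes the receptor that holds SMO inactive and is itself a gene that Hedgehog signalling switches on. It had the most negative of the 9 differences. Its intensity was 324, 316, 282 and 345 in the controls and 288, 302, 260.1 and 248 in the flox/flox glands. Flox/flox replicates 3 and 4 lay below every control, while replicates 1 and 2 lay within the control range, above flox/+ replicate 3. The means were 317 ± 26.3 in flox/+ and 275 ± 24.6 in flox/flox glands (SD, n = 4), and the flox/flox level was 87.3% of that in the controls (95% interval 76.7% to 99.2%, with the offset of 16 left in). The log2 difference of -0.20 ± 0.08 (SE) had a limma p of 0.0399 before and 0.466 after adjustment, and the 2-sided exact permutation test gave p = 0.0857. Across 18 alternative settings the difference was negative in each, between -0.25 and -0.15, and the adjusted p lay between 0.387 and 0.637.

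Fibroblast and matrix markers were read beside Ptch1, because Hedgehog-responding cells of the gland are known from its stroma. Of the 11 measured markers 7 were lower and 4 higher on average in flox/flox, with a median log2 difference of -0.23, none past the test and none at 0. The collagens Col1a1 and Col3a1 and the growth factor receptor Pdgfrb, 3 of the 11, were lower at an unadjusted limma p under 0.05, and none was higher at that level. Over all genes, 5.46% were lower and 4.81% higher at that level. The summed intensities of all 11 markers ran from 47894 to 60893 in flox/+ and from 45074 to 52250 in flox/flox glands. The mean log2 level of these markers was 11.75, 11.82, 12.06 and 11.95 in flox/+ replicates 1 to 4. In flox/flox replicates 1 to 4 it was 11.75, 11.60, 11.82 and 11.84. The part of stromal cells in the Ptch1 difference was not tested.

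Hhip encodes a membrane protein that binds Hedgehog ligands and keeps them from the receptor, and it too is a known target gene of the pathway. It varied most from gland to gland among the 9: its SD within genotypes, 0.21 on the log2 scale, was larger than that of 87.9% of all genes. Hhip read 151, 203, 189 and 133 in flox/+ and 138, 149, 174 and 166 in flox/flox glands. The highest and the lowest of the 8 readings both came from controls, and the flox/flox values lay inside the control range. Its log2 difference was -0.09 ± 0.12 (SE; 95% interval -0.36 to 0.18; limma adjusted p = 0.845). It depended on single controls: it was -0.004 without the lymphocyte-rich flox/+ replicate 2 and -0.19 without flox/+ replicate 4.

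Gas1 and Boc encode co-receptors that help PTCH1 bind the ligand. Gas1 read 1886, 1691, 1969.7 and 1746 in the controls and 1679.9, 1639, 1803 and 1616 in the flox/flox glands. In 3 of the 4 flox/flox glands Gas1 lay below every control, and replicate 3 lay among them. The log2 difference was -0.11 ± 0.07 (SE; 95% interval -0.27 to 0.05; limma adjusted p = 0.635), and without flox/+ replicate 2, the lowest control, it was -0.15.

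Boc read 292, 273, 339 and 332 in the controls. In the flox/flox glands it read 297, 302, 305 and 367, so that replicate 4 stood above all other glands and the remaining ones lay close together inside the control range. The log2 difference of 0.04 ± 0.09 (SE; 95% interval -0.16 to 0.24; limma adjusted p = 0.925) turned to -0.03 without flox/flox replicate 4 and to -0.01 without flox/+ replicate 2.

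Smo encodes the membrane protein that carries the signal onward. Smo read 502, 492, 516 and 575 in flox/+ and 521, 515, 511 and 528 in flox/flox glands. All flox/flox values lay inside the control range and close to each other, at 519 ± 7.10 (SD, n = 4) beside 521 ± 37.0 in the controls, whose spread came mostly from replicate 4. The difference between genotypes was -0.004 ± 0.07 (SE, log2 scale), and its 95% interval from -0.15 to 0.14 corresponds to 90.0% to 110% of the control level. Without flox/+ replicate 2 it was -0.03. Its sign was not stable: it was positive in 5 of the 18 alternatives, among them 0.04 without flox/+ replicate 4, 0.04 with median centring and 0.04 without quantile normalization.

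The GLI factors end the pathway. Gli1 encodes an activator whose own transcription is the usual readout of Hedgehog signalling, Gli2 the main activator that acts before it, and Gli3 the main repressor. Gli1 read 123, 145, 151 and 127 in the controls and 145, 128, 149 and 143 in the flox/flox glands. Every flox/flox value lay inside the control range. The log2 difference was 0.05 ± 0.08 (SE; 95% interval -0.13 to 0.23), which corresponds to 91.4% to 117% of the control level, with a limma adjusted p of 0.883. It was 0.08 without flox/+ replicate 2, and single arrays moved it between 0.004 (without flox/+ replicate 1) and 0.09 (without flox/+ replicate 3).

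Gli2 had the most positive of the 9 differences and the only values without overlap. It read 148, 156, 146 and 158 in the controls and 158, 176, 168 and 178 in the flox/flox glands. The gap between the genotypes was narrow, with the highest control at 157.6 and the lowest flox/flox gland at 158.1. The means were 152 ± 5.47 in flox/+ and 170.05 ± 8.98 in flox/flox glands (SD, n = 4), or 111% of the control level (95% interval 100.4% to 122%). On the log2 scale the difference was 0.15 ± 0.06 (SE), with a limma p of 0.0424 before and 0.467 after adjustment. The 2-sided exact permutation test gave p = 0.0286, the smallest that 4 against 4 arrays allow.

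Values without overlap were seen in 5.9% of all genes, 2.74% in the higher and 3.16% in the lower direction, beside 1 of the 9. The separation of Gli2 ended in the values as deposited, without quantile normalization, where the highest control read 161 and the lowest flox/flox gland 156.0. Its spread within genotypes was small, with an SD on the log2 scale of 0.06 that was larger than that of only 6.48% of all genes. Across the 18 alternative settings the difference stayed positive, between 0.12 and 0.18, with adjusted p between 0.384 and 0.703.

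Gli3 read 148, 144, 149.7 and 151 in the controls and 134, 143, 133 and 154 in the flox/flox glands. The controls lay close together, at 148 ± 3.34 (SD, n = 4), and the flox/flox glands on both sides of them, at 141 ± 9.59, with 3 below and 1 above every control. The log2 difference was -0.07 ± 0.07 (SE; 95% interval -0.21 to 0.08; limma adjusted p = 0.778). It was -0.10 without flox/flox replicate 4, and -0.04 without flox/flox replicate 1 or without flox/flox replicate 3.

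The array table has no detection calls. The mean readings of Gli1 and Gli3 lay below the deposited array medians, 159 to 178, and those of Gli2 and Hhip lay among them. As a reference, 1015 olfactory receptor genes, most of which are silent outside the nose, had a median intensity of 51.4, with 5% of them below 14.7 and 5% above 145.4. The means over 8 glands were 139 for Gli1 and 144 for Gli3, inside that range, and 161 for Gli2 and 163 for Hhip, just above it. For the luminal marker Prom1 the flox/flox mean (97.2) lay inside the range and the flox/+ mean (163) just above it. Of the olfactory receptor genes, 3.84% read at or above the mean of Gli2 and 3.74% at or above that of Hhip. Probes differ in how brightly they bind, so no order of abundance among the 9 genes is drawn from these values. For Gli1, Gli2, Gli3 and Hhip a share of the reading that is background could not be told from signal.

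**Figure D2:**
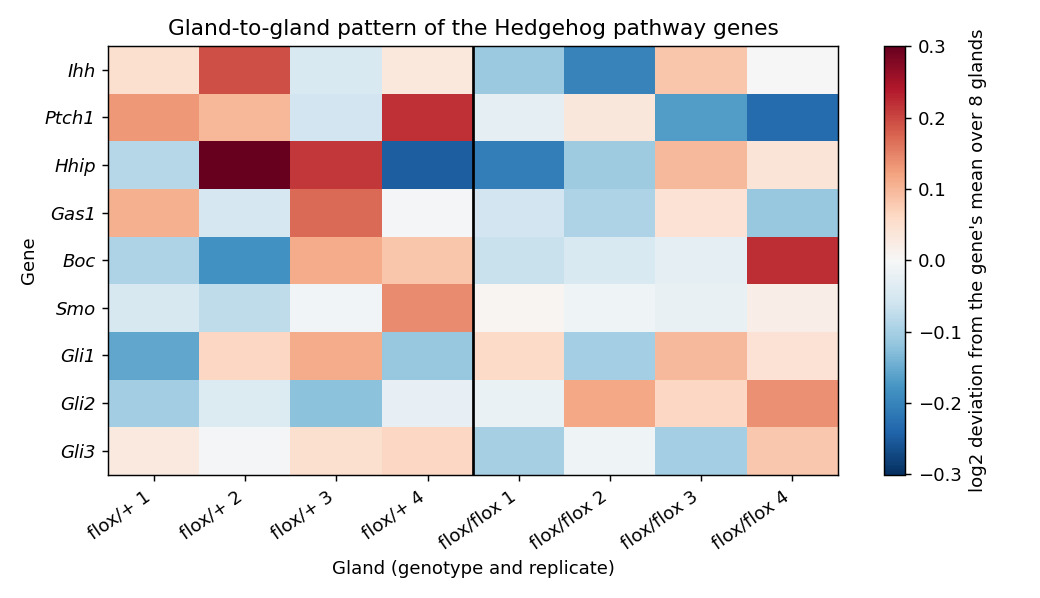
Log2 deviation of each Hedgehog pathway gene (rows) from its own mean over the 8 glands (columns, flox/+ left of the black line, flox/flox right), in red where above and in blue where below that mean. Hhip shows the widest range, from flox/+ replicate 2 (203) down to flox/+ replicate 4 (133), and the Gli2 row is the only one in which the lowest flox/flox value exceeds every control.

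The remaining genes of the pathway were read from lists by role, 57 genes of which 53 had a probe set with 1 symbol. None of the 53 passed the test in limma, and 5 (9.43%), 2 higher and 3 lower, had an unadjusted p under 0.05, close to the 10.3% of all genes. Their median log2 difference was -0.02, with 24 positive and 29 negative.

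Among the ligands and the proteins that release them, 8 measured, Disp1 and Scube1 had an unadjusted limma p under 0.05. Disp1 encodes the transporter that releases the lipid-bearing ligand from the cell that makes it. It read 239, 231, 223 and 222 in the controls and 249, 300.02, 251 and 274 in the flox/flox glands, without overlap. The log2 difference was 0.21 ± 0.07 (SE; limma adjusted p = 0.337), while another probe set of Disp1 differed by 0.10 ± 0.07. Scube1, whose protein belongs to a family of secreted carriers of the ligand, read 246, 273, 247 and 281 in the controls and 193, 224, 260 and 219 in the flox/flox glands, with replicate 3 among the controls (-0.22 ± 0.09 SE, limma adjusted p = 0.457). The ligand genes Shh and Dhh were at 0.02 and 0.08 on the log2 scale. The mean readings of Dhh (111 in flox/+, 118 in flox/flox) lay inside the range of the olfactory receptor genes. Those of Shh (155 and 157) lay just above it.

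No receptor or co-receptor besides the members, 4 measured, had an unadjusted p under 0.05. The smallest p was that of the glypican Gpc5 (0.10 ± 0.08, SE). The co-receptor Cdon, a relative of Boc, differed by -0.13 ± 0.16, and the glypican Gpc3 by -0.20 ± 0.20, with wide errors for both. The mean readings of Cdon (60.5 in flox/+, 54.2 in flox/flox) lay inside the range of the olfactory receptor genes. For Gpc5 the flox/+ mean (142) lay inside this range and the flox/flox mean (153) just above it. In the 13 measured genes that carry the signal from SMO to the GLI factors none had such a p either. The smallest was that of Rab23, a small GTPase that restrains the pathway (0.13 ± 0.07), and Sufu, which holds the GLI proteins inactive, was at -0.10 ± 0.07.

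Of the 15 measured genes of the primary cilium, Ift140 and Kif3b had an unadjusted limma p under 0.05, in opposite directions. Ift140, a part of the transport complex that returns cargo from the cilium tip, read 276, 320, 270.2 and 283 in the controls and 265, 247, 251 and 258 in the flox/flox glands, without overlap (-0.16 ± 0.07 SE, limma adjusted p = 0.467). In the values as deposited this separation ended. The ciliary motor subunit Kif3b read 305, 302, 324 and 283 in the controls and 359, 356, 308 and 344 in the flox/flox glands, where replicate 3 overlapped (0.16 ± 0.07 SE, limma adjusted p = 0.479).

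Genes known from other tissues to respond to Hedgehog signalling, 13 measured, included 1 with an unadjusted limma p under 0.05. Ccnd2, which encodes the cell cycle protein cyclin D2, read 2017, 1860.1, 2164 and 1962 in the controls and 1638, 1700.1, 1939.6 and 1662 in the flox/flox glands, with replicate 3 among the controls (-0.21 ± 0.08 SE, limma adjusted p = 0.396). The stromal transcription factor genes Foxf1 (0.05), Foxf2 (0.07) and Foxl1 (-0.04), known Hedgehog targets of gut and lung mesenchyme, had small log2 differences that did not pass. A second probe set of Foxf1 was at -0.06, and the mean readings of Foxf2 (83.5 in flox/+, 88.3 in flox/flox) and Foxl1 (97.5 and 94.0) lay inside the range of the olfactory receptor genes.

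**Figure D3:**
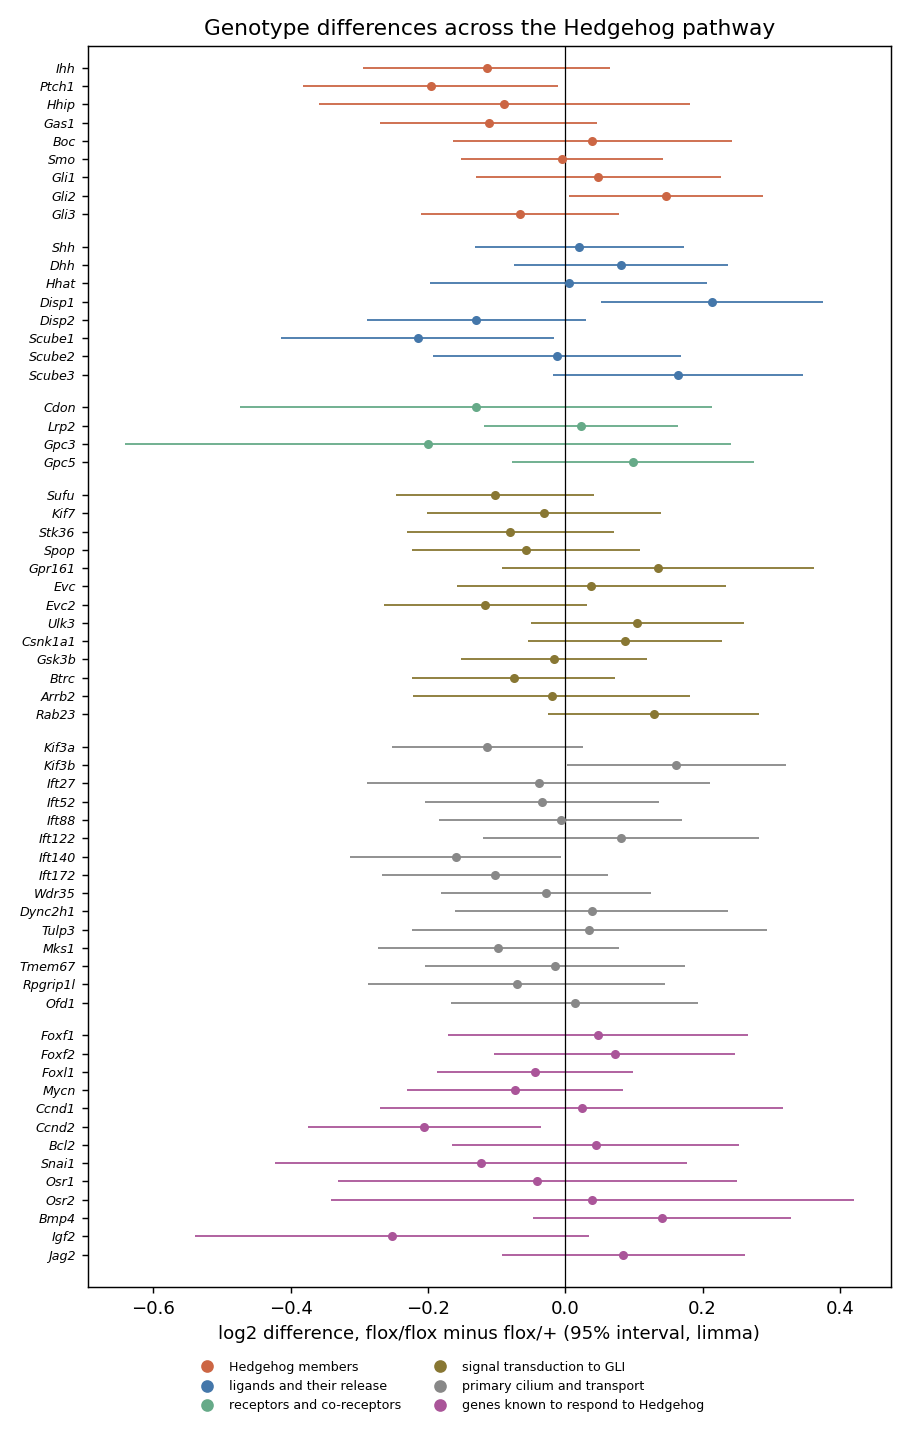
Log2 difference between the genotypes (flox/flox minus flox/+, points) with its 95% interval from limma (bars) for the 9 members and the 53 other pathway genes, coloured by role. Intervals of 2 members, Ptch1 and Gli2, and of 5 other genes leave out 0 before adjustment, and no gene passed after it.

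For each of the 9 genes, those with the most similar pattern over the 8 arrays were sought among the 13291 genes left after the lowest 1 in 3 by level were dropped, by the Pearson r of log2 values. The arrays share processing, and the highest of so many r values is large by selection, so they are descriptions. Ptch1 was closest to Bcar3 (r = 0.98) and Clip4 (0.98), and Gli2 to A830018L16Rik (0.97) and Nhsl1 (0.96). Gli1 was closest to Angpt4 (0.97) and 4922502B01Rik (0.96), and Gli3 to Tom1l1 (0.95) and Rnft1 (0.95). Hhip was closest to Lce1a1 (0.95) and Sh3gl3 (0.92), and Ihh to Zdhhc18 (0.96) and A930024E05Rik (0.94). Smo was closest to Serinc5 (0.97) and Kctd13 (0.96), Gas1 to Nlrp6 (0.96) and Kctd17 (0.96), and Boc to Actbl2 (0.95) and Zc3h14 (0.94). None of these was another Hedgehog member or a gene of the 5 pathway lists. With the genotype means removed the closest gene remained first for Gli1 (Angpt4) and Boc (Actbl2).

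**Figure D4:**
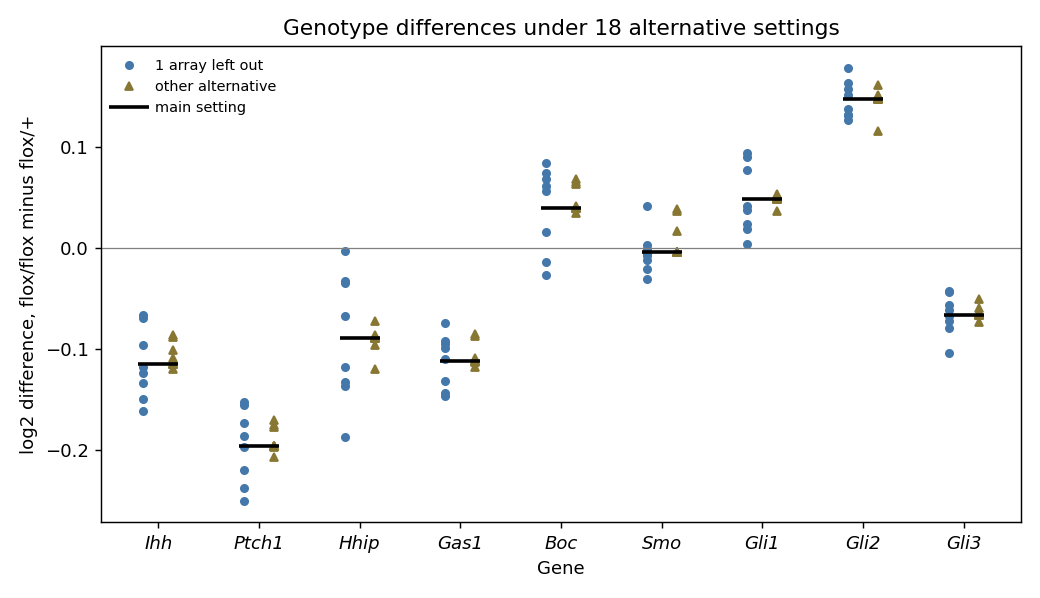
Log2 difference between the genotypes (flox/flox minus flox/+) of each of the 9 genes in the main setting (black bars), with 1 array left out (blue circles) and under 10 other alternatives (brown triangles). Ptch1, Ihh, Hhip, Gas1 and Gli3 stay below 0 and Gli1 and Gli2 above it in all 18 alternatives, whereas Smo and Boc fall on both sides.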

How the data were processed

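Per the submitters' processing notes, the authors used PLIER and Affymetrix Expression Console (1.0), and the deposited unit is a linear intensity per probe set. For background correction and normalization between arrays the sources used here give no method. The table holds 35557 probe sets, of which 21789 were paired with 1 gene symbol by the platform annotation, 1621 with several and 12147 with none. The first kind gave 19938 genes, each through its probe set with the highest mean. Values were offset by 16, taken to log2 and quantile normalized. The comparison of genotypes used lmFit and eBayes of limma 3.58.1 (R 4.3.3), with Benjamini-Hochberg adjustment over all genes and a threshold of 0.05. Folds and percentages keep the offset, which understates changes of low genes. The number of arrays, 4 per genotype, limits the precision. No labels give dates or batches.

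Members, lists and tests were chosen with earlier results of these data known, and the olfactory receptor reference after the members' values were seen. Named were the members, Sox9, from each pathway list up to 4 genes with an unadjusted p under 0.05 (otherwise the smallest p), and the 2 genes most like each member; other pathway genes and markers were named after their values were seen. Replicate numbers were not used as pairs: deviations of glands with equal numbers correlated between -0.20 and 0.21. No arrays held identical values, and the script was tested on simulated data.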

Additional observations from a re-analysis of the deposited data

Results flagged for a closer look

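Boc in flox/flox replicate 4 read 367, far from the other flox/flox glands at 297, 302 and 305. The gap to the nearest gland, relative to the range of the group, was above the 95% critical value of Dixon's test for groups of 4 samples. Of 20 groups tested (the 9 genes and Sox9 in both genotypes) 1 was marked in this way, and chance marks about 1 in 20. Without this gland the log2 difference of Boc was -0.03 in place of 0.04.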

How the results depend on the processing

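In each of the 18 alternatives 0 of the 9 genes and 0 of the 53 other pathway genes passed in limma, and the smallest adjusted p of a member was 0.384; at an unadjusted p under 0.05 the main setting gave 2 and 5. The exact permutation test gave 1 of the 9, Gli2. With 4 against 4 arrays an exact p under 0.05 needs values without overlap, which were seen in 5.9% of all genes. The median difference of the members lay between -0.09 and -0.03. Ptch1 had an unadjusted p under 0.05 in 10 of 18 alternatives and Gli2 in 8. The count of all genes past the threshold, 8, became 18 with median centring, 4 with an offset of 1, 19 with an offset of 64, 3 without the lowest 1 in 3 genes, 1 with all probe sets and 17 with eBayes trend and robust options; the cause was not tested. Leaving out 1 array gave 2 (flox/+ replicate 4 or flox/flox replicate 4) to 19 (flox/flox replicate 3), and 4 without flox/+ replicate 1 or flox/flox replicate 1. With the replicate number as a block the count was 8 and no member's call changed (Ptch1 adjusted p = 0.535, Gli2 0.574). Without detection calls, low readings cannot be told from background.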

Other observations

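Among the 36 pairs of the 9 genes, 1 had an unadjusted p under 0.05 for Pearson's r over the 8 glands (exact permutation test, 2-sided), and none had an adjusted p under 0.05, the smallest being 0.742. The pair was Gli2 and Gas1, with r = -0.78 (exact p = 0.0247, adjusted p = 0.742) and Spearman's rho = -0.83 (exact p = 0.0154, adjusted p = 0.554). Without the glands farthest from the median of Gli2, 2 in number, r was -0.58, and with genotype means removed it was -0.63. The known target genes Ptch1, Gli1 and Hhip form 3 of the pairs, none of them past the threshold. Ptch1 and Gli1 had r = -0.68 (exact p = 0.0709, adjusted p = 0.742) and rho = -0.62 (exact p = 0.115, adjusted p = 0.778). This r was -0.69 without the glands farthest from the median of Ptch1, 2 in number, -0.74 with genotype means removed, and between -0.80 and -0.59 with 1 array left out, alternatives chosen after seeing the data. Gli1 and Hhip had r = 0.65 (exact p = 0.0920, adjusted p = 0.742) and rho = 0.69 (exact p = 0.0694, adjusted p = 0.778), and r was 0.51 without the glands farthest from the median of Gli1, 2 in number. Ptch1 and Hhip had r = -0.34 (exact p = 0.399, adjusted p = 0.932) and rho = -0.40 (exact p = 0.327, adjusted p = 0.859), with r = -0.08 without the glands farthest from the median of Ptch1, 2 in number, and -0.73 with genotype means removed. Hhip and Smo had r = -0.64 (exact p = 0.0724, adjusted p = 0.742) and rho = -0.62 (exact p = 0.115, adjusted p = 0.778), with r = -0.55 without the glands farthest from the median of Hhip, 2 in number.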
